A study of Homo sapiens with 4 samples.

Results

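The genes described here encode the ubiquitin-specific proteases. They were taken as every protein-coding gene whose symbol is USP followed directly by a number, without the USP17L copies and without genes of the Y chromosome, which gave 51 of the 19318 protein-coding genes that could be placed in the gene annotation. The proteins were cross-linked to RNA in MDA-MB-231, an established triple-negative breast cancer cell line, by 400 mJ/cm2 of ultraviolet light at 254 nm, pulled down with an antibody, and the RNA attached to them was sequenced as tags (CLIP). HNRNPC, a mostly nuclear protein that binds U-rich RNA, was profiled in 2 samples by irCLIP according to the labels, although the deposited list is named after HITS-CLIP, another form of the method. PABPC4, a poly(A)-binding protein, was profiled in 2 samples by PAPERCLIP, in which reverse transcription is primed on the poly(A) tail so that tags end where mRNAs end. All cells were the parental line without any gene perturbation, and the tags of the samples were pooled into 1 peak list per protein, so no spread between replicates could be given for any value below and no test between groups was possible.

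A ubiquitin-specific protease is a cysteine protease that cuts ubiquitin, a small protein tag, from other proteins or from ubiquitin chains. By doing so it can save a protein from the proteasome, end a ubiquitin signal or recycle the ubiquitin. Members of the family act on histones, on proteins of the DNA damage response and the p53 pathway, on receptors moving through endosomes and on signalling proteins, and a few have lost the protease activity. USP39, a spliceosome factor, is inactive as a protease, and USP6NL, a GTPase-activating protein named after its similarity to the N-terminal part of USP6, fits the naming rule without being a protease. The mRNAs of these genes end at a poly(A) site, which is usually preceded by a poly(A) signal, AAUAAA or AUUAAA, and a gene with several poly(A) sites can make mRNAs with shorter or longer 3′ untranslated regions (3′ UTRs).

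The size of a peak is given as its height, meaning how many unique tags of the pooled samples covered its summit, and heights were not scaled to library depth. The whole lists held 9107 HNRNPC positions with a median height of 11 and 63507 PABPC4 positions with a median height of 38. Heights depend on how much of an RNA a cell holds as well as on binding, and RNA levels were not analysed here. Of 6 markers of mesenchymal-like breast cancer cells 6 had a PABPC4 peak (VIM reached 10197 tags), as did 3 of 6 luminal markers and 0 of 3 leukocyte markers. The peak lay in a 3′ UTR for 5 of the mesenchymal-like markers, while LGALS1 had 1 peak and none in a 3′ UTR. Of the luminal markers GATA3 and CDH1 had a PABPC4 peak in a 3′ UTR, of 108 and 56 tags, ESR1, the oestrogen receptor gene, had 2 PABPC4 peaks and none in a 3′ UTR, and PGR, FOXA1 and TFF1 had none at all.

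PABPC4 peaks were found in most of the family. Of the 51 genes 42 (82.4%, 95% Wilson interval 69.7 to 90.4, counting error only) held a PABPC4 peak, against 60.7% of all protein-coding genes. HNRNPC peaks were found in 17 of the 51 (33.3%, 22.0 to 47.0), against 19.2% of all genes. Peaks of both proteins were in 16 genes (31.4%), against 18.8% of all genes, and USP35 was the only gene with an HNRNPC peak and no PABPC4 peak. The shares of the family were above the background for each of these counts, but so were the lengths of its genes. The USP genes spanned a median of 68.3 kb, all protein-coding genes 27.3 kb. Among the 4721 protein-coding genes, USP genes included, with a span between the family's quartiles, 37.0 and 105 kb, 73.0% had a PABPC4 peak and 29.0% an HNRNPC peak. In the same window lay 24 USP genes, of which 21 had a PABPC4 peak and 9 an HNRNPC peak.

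The 8 genes without a peak of either protein were USP2, USP6, USP18, USP26, USP27X, USP29, USP50 and USP51. They include USP18, which removes the ubiquitin-like protein ISG15 and is known as an interferon-induced gene, USP26 and USP29, which are known mainly from the testis, and USP27X and USP51, close relatives of USP22 that can replace it on histones. USP6 is an oncogene found in primates that is rearranged in aneurysmal bone cysts. A gene that is not expressed and an expressed gene that is not bound cannot be told apart from these lists. The 9 genes without a PABPC4 peak spanned 3.08 to 73.9 kb with a median of 26.5 kb, and the 42 with a peak spanned 6.27 to 284 kb with a median of 83.1 kb, so the ranges overlapped widely.

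**Figure D1:**
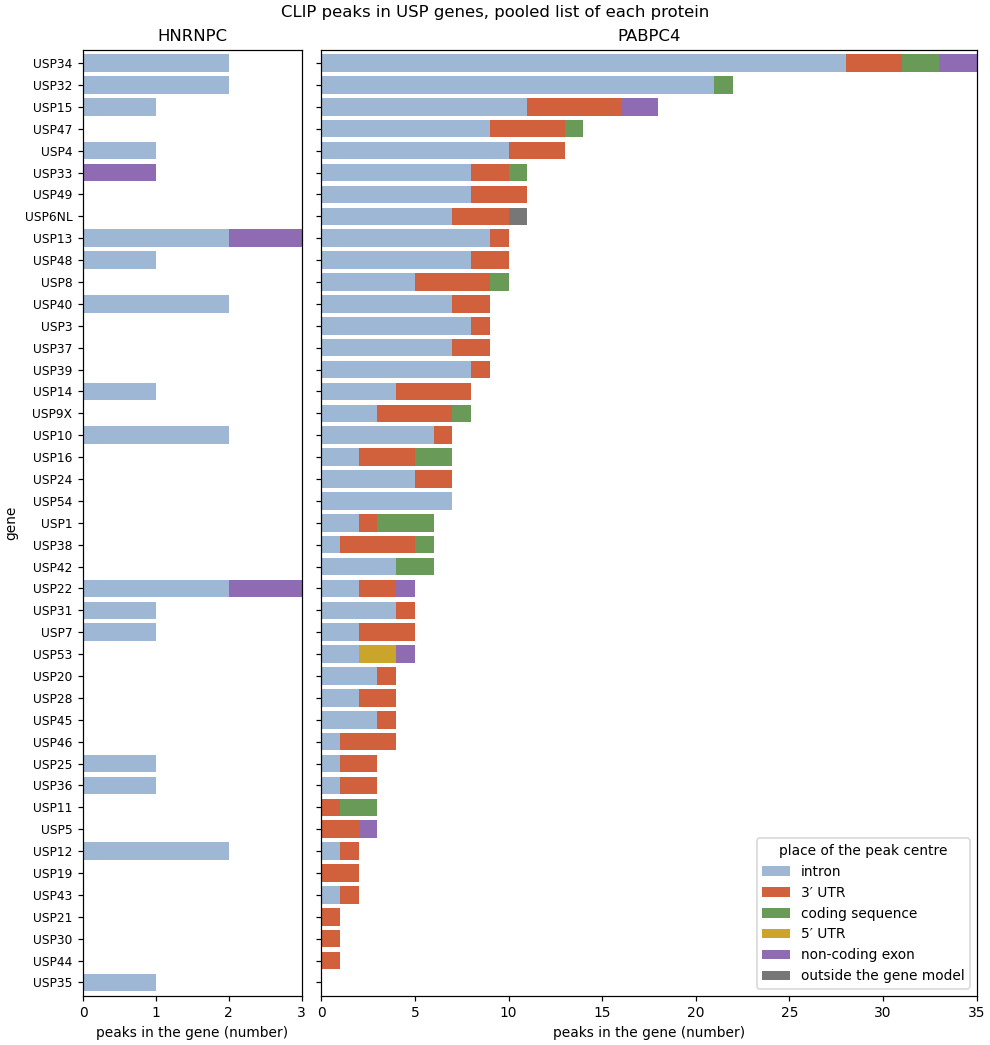
Number of HNRNPC (left) and PABPC4 (right) peaks in each of the 43 USP genes with a peak, coloured by the place of the peak centre in the annotation. HNRNPC peaks reached 3 per gene and lay in introns or non-coding exons, while USP34 held 35 PABPC4 peaks, most of them in introns.

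Sequences are shown for the features that the results turn on, each as RNA of the transcribed strand of hg38, 5′ to 3′, 30 bases long. For HNRNPC these are runs of U near the 5′ end of a peak, with only the longest run of each in capitals. A run was counted when at least 5 U in a row lay between 50 nt before the peak's 5′ end and 10 nt inside it on the transcribed strand. It was found at 5 of the 26 HNRNPC peaks in USP genes, and 4 of these are shown. The run in USP25 filled the end of the window with 18 U (chr21:15748443-15748472, plus strand), and the others were in USP13 (8 U, chr3:179668164-179668193, plus), USP32 (6 U, chr17:60384768-60384797, minus) and USP4 (5 U, chr3:49290104-49290133, minus). Only the run in USP25 reached into its peak, and the runs in USP13, USP32 and USP4 lay before theirs. The runs in USP25 and USP32 touched an edge of the searched stretch, so they may be longer than given.
USP25: gcuacuuuuuagUUUUUUUUUUUUUUUUUU
USP13: auuuauuuauaUUUUUUUUagagauggggu
USP32: UUUUUUggacggaguuuugcucuuguugcc
USP4: auacuccaaauuaUUUUUgguauuuuaggg

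The other mark of the HNRNPC peaks is the hexamer GUGUCA at their 3′ end, the second set, with the hexamer in capitals. It was searched on the transcribed strand within about 20 nt inside and 15 nt past the peak's last base, and it lay at 11 of the 26 peaks. The hexamer was common in the whole list too, at 39.3% of the HNRNPC peaks, and where it comes from was not tested. The examples are from USP12 (chr13:27102099-27102128, minus), USP14 (chr18:194875-194904, plus), USP22 (chr17:21021610-21021639, minus), USP36 (chr17:78824860-78824889, minus) and USP4 (chr3:49289984-49290013, minus), whose peak also had the run of 5 U shown above.
USP12: cuuagcaGUGUCAgucauuucaguuauugu
USP14: gagcugagauuGUGUCAguguacuccagcc
USP22: auucuuuauggugaugGUGUCAggaauucu
USP36: cugccauggccaGUGUCAgugcugcagccc
USP4: aguagccaggacuacaggaauGUGUCAcca

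For PABPC4 the last 30 bases of 3′ UTR peaks are shown, with any poly(A) signal in capitals. The first set holds the tallest ends of the family that were not followed by an adenine-rich stretch in the genome, down to 137 tags. USP22 had its tallest peak end at chr17:20999708-20999737 (minus) and a lower peak at chr17:20999597-20999626 (minus), USP1 ended at chr1:62451766-62451795 (plus), USP10 at chr16:84779892-84779921 (plus), USP16 at chr21:29054454-29054483 (plus), USP14 at chr18:214597-214626 (plus) and USP39 at chr2:85649253-85649282 (plus).
USP22, 454 tags: gacugugcugugguuggagacuuuauuuac
USP22, 188 tags: cuaugucauAAUAAAgcuacauuuucucug
USP1, 231 tags: uauauuuuuauaaauacagcugaguuuucu
USP10, 229 tags: ccaucAAUAAAaaucacaaaguugguuuaa
USP16, 152 tags: aucacaacacaucAAUAAAcugacuuaccc
USP14, 137 tags: aguuuuAAUAAAaagaaaaaaaaaagaagc
USP39, 137 tags: auggAUUAAAuagucuccuguuuuuaaacc

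The last set holds genes with a pair of ends of similar height or far apart. They are USP47 (chr11:11956540-11956569 and chr11:11957487-11957516, plus), USP7 (chr16:8893495-8893524 and chr16:8892776-8892805, minus), USP5 (chr12:6866488-6866517 and chr12:6866600-6866629, plus), USP24 (chr1:55067913-55067942 and chr1:55066359-55066388, minus), USP34 (chr2:61226792-61226821 and chr2:61187464-61187493, minus) and USP48 (chr1:21727855-21727884 and chr1:21678909-21678938, minus), the proximal end given first in each case.
USP47 proximal: uagcuuaauAAUAAAagcugugcaaaggcc
USP47 distal: gaacaugccAAUAAAacauuuguucauucu
USP7 proximal: cucacaaccuAAUAAAuagcgcucuucccu
USP7 distal: guauguugAAUAAAauuuucuauaaaaauu
USP5 proximal: ugugguuggucaaggagggaugugagggaa
USP5 distal: auacacgaugugAAUAAAaguacaacggcu
USP24 proximal: uauuuucccagaAAUAAAuauaaagcaauu
USP24 distal: agaguauaaAAUAAAuuuuucaaaaacaga
USP34 proximal: auugaaaaaauauacaguaaaauaucuagc
USP34 distal: acuuaAUUAAAcugauugugaugacuuuuc
USP48 proximal: guccuuacuuuagaaAAUAAAuacuuaagc
USP48 distal: uucuacuuucAAUAAAgcaugaaagugaag

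HNRNPC contacted USP transcripts in introns. Of the 26 peaks in 17 genes 23 (88.5%, 71.0 to 96.0) had their centre in an intron and in no annotated exon of the gene, against 84.7% of all HNRNPC peaks in protein-coding genes, and the remaining 3, in USP13, USP22 and USP33, lay in exons of non-coding transcripts that are introns of the main (canonical) transcript. None of the 26 was in a 3′ UTR, a coding sequence or a 5′ UTR, and 0 of 26 allows a share of up to 11.5% by counting error. Of all HNRNPC peaks 5.07% were in 3′ UTRs. In terms of genes 0 of 51 had an HNRNPC 3′ UTR peak, against 1.88% of all protein-coding genes, a share at which a family of this size would hold about 1 such gene. In the canonical transcripts 10 of the 26 peaks (38.5%, 22.4 to 57.5) were in the first intron, which made up 25.7% of the intron length of the 17 genes, and the interval includes that share.

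The heights of the 26 peaks ran from 5 to 45 tags with a median of 8.5, below the median of the list, and only 1 peak of the family stood apart. USP22, the ubiquitin protease of the SAGA transcription coactivator complex, had 3 HNRNPC peaks of 45, 13 and 12 tags. The 45-tag peak (chr17:21010910-21011055, minus) was in intron 8, and 4.61% of the positions of the list were at least as tall. The 13-tag peak lay upstream of it, in intron 7, and the 12-tag peak in intron 2. USP34, a very large protease that acts on axin in the Wnt pathway, followed with 21 tags in intron 1 and 9 tags in intron 10. USP4, which acts in TGF-β signalling, had 1 peak of 15 tags in intron 15. These 3 genes held the tallest peaks, and the other 14 genes stayed at or below 12 tags.

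USP13, a relative of the chain-recycling protease USP5, also had 3 HNRNPC peaks, in introns 1, 16 and 19, but each was 7 tags high and the authors' p-value was 0.0916 for all of them. USP12, a partner of the WD-repeat proteins WDR48 and WDR20, had peaks of 12 and 7 tags in introns 3 and 1. USP10, which acts on p53 and binds the stress granule protein G3BP1, had peaks of 11 and 10 tags in introns 1 and 3. USP32 had 2 peaks of 7 tags in introns 1 and 2, and USP40 had peaks of 7 and 6 tags in introns 8 and 1. The genes with a single peak other than USP4 ranged from 11 tags in USP7, the protease of MDM2 and p53, through 10 in USP48, 9 in USP14 and USP36, 8 in USP35 and 6 in USP15, USP31 and USP33 to 5 in USP25. A p-value of at most 0.001 by the authors' peak caller was carried by 14 of the 26 peaks, and 4 peaks, 3 in USP13 and 1 in USP33, were above 0.05.

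Runs of U as described above were found at 19.2% of the USP peaks (8.51 to 37.9) and at 34.7% of all HNRNPC peaks in protein-coding genes. With 4 U in a row the shares were 42.3% (25.5 to 61.1) and 48.9%, and both intervals of the USP peaks include the share of the whole list. The 5 peaks with a run had 21 tags in USP34, 15 in USP4, 7 in USP13 and USP32 and 5 in USP25. The longest run within the searched stretch was thus at the lowest peak. The 45-tag peak of USP22 had neither a run of 5 U nor GUGUCA, and its longest run of U in that window was 3. The hexamer was at 42.3% of the USP peaks (25.5 to 61.1). Peaks with the hexamer had 6 to 15 tags, and those without it 5 to 45 tags, with medians of 9 and 7.

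**Figure D2:**
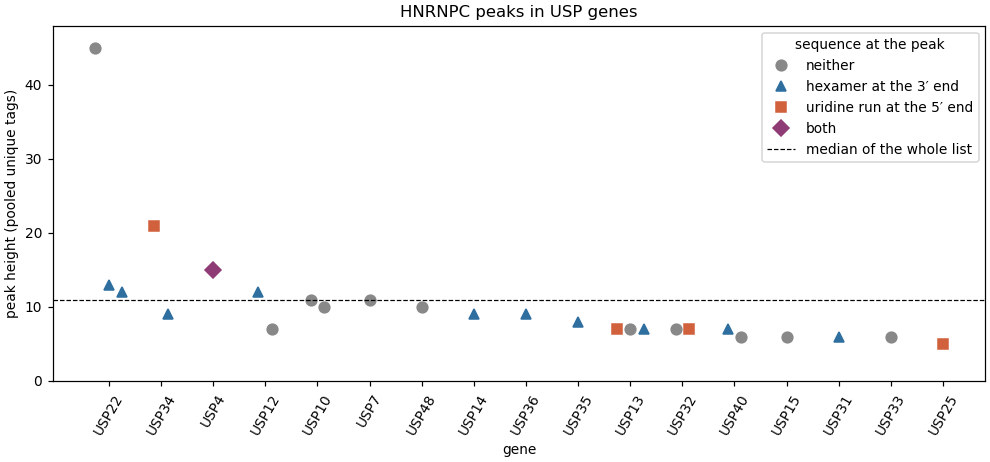
Height of each of the 26 HNRNPC peaks, in pooled unique tags, in the 17 USP genes that hold them, ordered by the tallest peak of the gene. Symbols mark a run of at least 5 uridines at the 5′ end, the hexamer at the 3′ end, both or neither, and the dashed line is the median of the whole list, 11 tags. The 45-tag peak of USP22 is the only one above 21 tags.

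PABPC4 gave 320 peaks in the 42 genes, with a median of 6.5 per gene, against 3 over all genes with a peak. The genes with the most were USP34 (35 peaks), USP32 (22), USP15 (18), USP47 (14) and USP4 (13), and the 11 genes with 10 or more peaks held 165 of the 320. USP21, a histone H2A protease, USP30, the protease of the mitochondrial outer membrane, and USP44, a regulator of the mitotic checkpoint, had 1 peak each. The number of PABPC4 peaks followed the span of the gene, with a Spearman rho of 0.67 over the 51 genes, and the number in introns followed the intron length of the canonical transcript with a rho of 0.72. For HNRNPC the rho with the span was 0.36, and the numbers of peaks of both proteins had a rho of 0.35 with each other. These are correlations across genes of the same pooled libraries, and genes are not replicates.

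**Figure D3:**
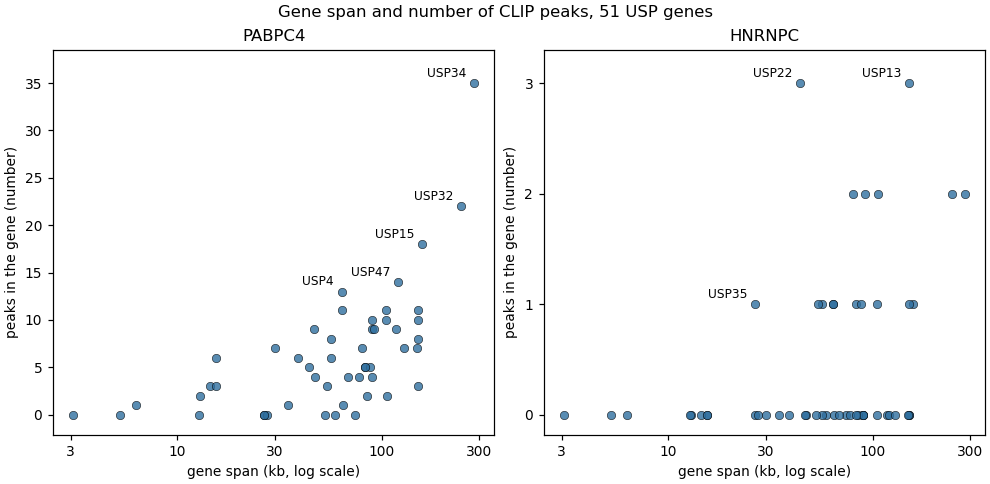
Span of each of the 51 USP genes in kb (log scale) against its number of PABPC4 peaks (left) and HNRNPC peaks (right), 1 point per gene. The 284 kb gene USP34 has the most PABPC4 peaks, 35, while USP22, with 44.2 kb, shares the highest HNRNPC number, 3, with the 151 kb gene USP13.

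By place, 211 of the 320 PABPC4 peaks (65.9%) were in introns, against 59.5% of all PABPC4 peaks in protein-coding genes. A further 82 (25.6%, 21.2 to 30.7) were in 3′ UTRs, against 31.1%, and 17 (5.31%) were in coding sequence, against 5.27%. The rest were 7 in non-coding exons, 2 in the 5′ UTR of USP53 and 1 of 16 tags under the ID of USP6NL but outside its gene model. The median height was 39.5 tags in 3′ UTRs and 35 in introns.

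Primers that start on poly(A) can also start on stretches of A inside an RNA, so the genomic 50 nt downstream of each peak were searched for a run of 6 A or a window of 10 nt with 7 A. Such an adenine-rich stretch followed 66.8% of the intron peaks in USP genes (60.2 to 72.8), against 71.3% of all intron peaks. It followed 14 of the 17 peaks in coding sequence (82.4%, 59.0 to 93.8), against 62.2% of all coding-sequence peaks. It followed 35.4% of the 3′ UTR peaks (25.9 to 46.2), against 31.9% of all 3′ UTR peaks. In USP32, a membrane-bound protease of the endosomal system, 21 peaks lay in introns and 15 of them were followed by such a stretch, including the tallest at 119 tags. In USP34 the same held for 17 of 28 intron peaks, up to 111 tags, and for its tallest peak of all, 189 tags in exon 79 within the coding sequence. USP4 had its tallest peak, 158 tags, in intron 6 in front of an adenine-rich stretch. In these 3 genes the tallest PABPC4 peaks were at places with genomic A and not in the 3′ UTR.

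Intron peaks that had a poly(A) signal in their last 40 nt and no adenine-rich stretch numbered 7, in 5 genes. USP24 had 2, of 50 tags in intron 32 and 26 tags in intron 36. USP34 had 2 as well, of 15 tags in intron 75 and 12 tags in intron 69. USP14 had 1 of 49 tags in intron 5, USP37 1 of 34 tags in intron 10 and USP10 1 of 21 tags in intron 4. They made up 3.32% of the intron peaks of the family (1.62 to 6.69), against 2.18% of all intron peaks.

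In 3′ UTRs, where PAPERCLIP reads the end of an mRNA, 38 of the 51 genes (74.5%, 61.1 to 84.5) had a PABPC4 peak, against 49.7% of all protein-coding genes. The 4 genes with PABPC4 peaks elsewhere but none in a 3′ UTR were USP32, USP42, USP53 and USP54. Of the 82 peaks in 3′ UTRs 42 (51.2%, 40.6 to 61.7) had a poly(A) signal in their last 40 nt, against 50.5% of all 3′ UTR peaks. The signal was AAUAAA in 33 and AUUAAA in 9, and its first base lay 7 to 34 nt before the last base of the peak, with a median of 19 nt. An annotated transcript end lay within 50 nt of 41 of the 82 (interval of the share 39.4 to 60.6%), against 54.6% of all. The signal was present at 30 of these 41 (73.2%) and at 12 of the 41 others (29.3%), close to the 69.7% and 27.4% of the whole list.

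The tallest 3′ UTR peak of a gene had a median of 60.5 tags over the 38 genes and 71.5 tags over all 9594 genes with such a peak. USP22 was highest in the family with 454 tags (chr17:20999708-20999778, minus), in exon 13 and 112 nt upstream of the canonical end. No poly(A) signal was in the last 40 nt of that peak and no adenine-rich stretch followed it, while the lower USP22 peak of 188 tags ended 1 nt before the canonical end with AAUAAA at 20 nt from its last base. Of all PABPC4 positions 1.0% were at least as tall as the 454-tag peak. USP22 thus had the tallest peak of the family in both lists, in introns for HNRNPC and in the 3′ UTR for PABPC4.

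The next tallest, other than that of USP37, were at canonical ends. USP1, the protease of the Fanconi anaemia pathway, had 231 tags in a peak that ended 9 nt before the canonical end without a signal in its last 40 nt. USP10 had 229 tags, 1 nt before the canonical end, with AAUAAA at 24 nt. USP16, a histone H2A protease, had 152 tags there with AAUAAA at 16 nt, and 2 further peaks of 55 and 10 tags just upstream. USP37, a cell cycle protease, reached 143 tags in front of an adenine-rich stretch, 3012 nt short of the canonical end and 5 nt past an annotated end. USP14, which sits on the proteasome, and USP39 had 137 tags each, with AAUAAA and AUUAAA. The lowest of the 38 tallest peaks was 7 tags in USP45, with AAUAAA at 26 nt.

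**Figure D4:**
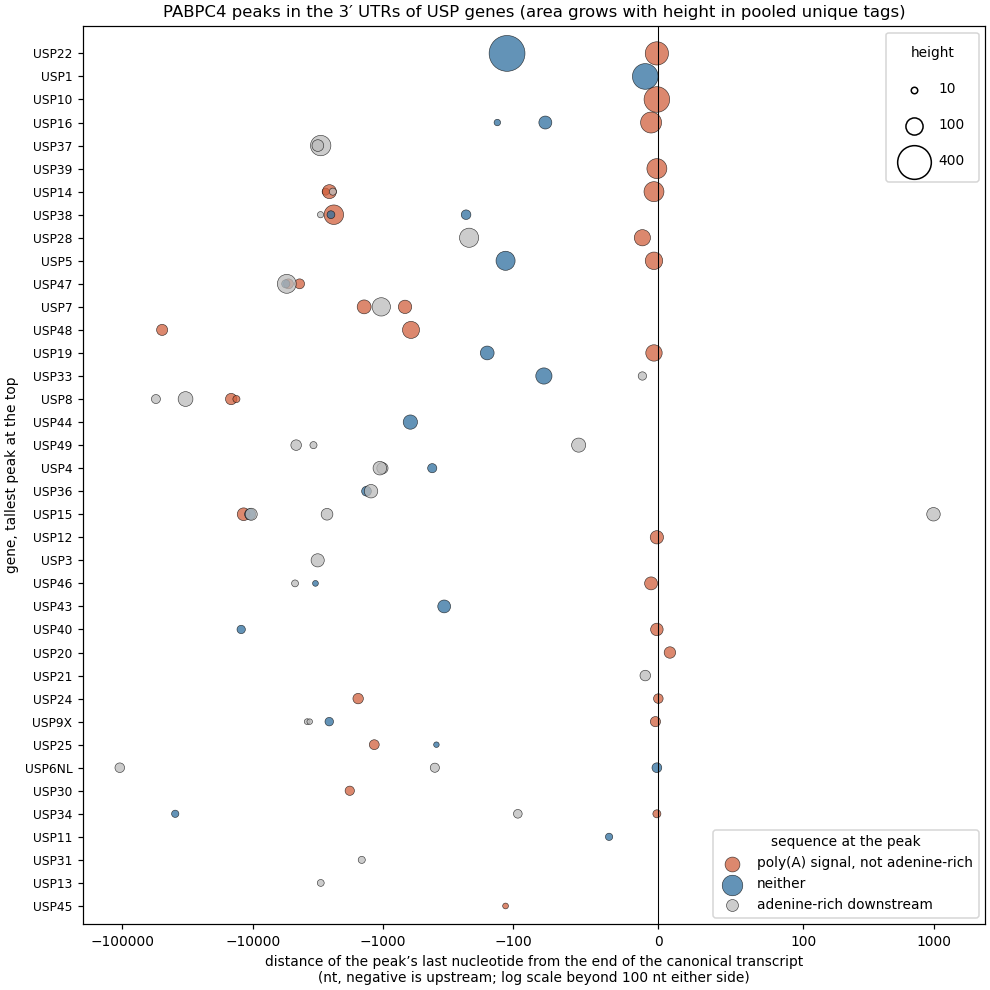
Position of all 82 PABPC4 peaks in 3′ UTRs of 38 USP genes, as the distance of the last nucleotide of the peak from the end of the canonical transcript (nt, log scale beyond 100 nt), with symbol area growing with height. Colours separate peaks with a poly(A) signal and no adenine-rich stretch, peaks followed by an adenine-rich stretch, and peaks with neither. The 454-tag peak of USP22 sits 112 nt upstream of the canonical end, and the 231-tag peak of USP1 and the 229-tag peak of USP10 lie within 9 nt of it.

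Without the peaks in front of adenine-rich stretches 32 genes kept a 3′ UTR end. The tallest of these ends was at the canonical end (within 50 nt) in 15 genes, at another annotated end in 5 and at no annotated end in 12, of which 5 lay within 200 nt upstream of an annotated end. A poly(A) signal was present at 22 of the 32. In 6 genes, USP3, USP13, USP21, USP31, USP37 and USP49, every 3′ UTR peak was followed by an adenine-rich stretch.

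At least 2 ends more than 50 nt apart, neither followed by an adenine-rich stretch, were present in 17 of the 51 genes (33.3%, 22.0 to 47.0), against 15.6% of all genes. Among genes with a PABPC4 3′ UTR peak the share was 44.7% of 38 USP genes (30.1 to 60.3) and 31.4% of all 9594 genes. With peaks at or above the median height of the list alone, 8 USP genes had such a pair. The 2 tallest ends of a gene were a median of 1301 nt apart, with a range of 73 to 48946 nt. The proximal end, the one nearer to the start of the gene, was taller in 8 genes, the distal one in 8, and in USP47 both were equal. Among these pairs neither end was thus taller more often. Some of the genes had a taller 3′ UTR peak in front of an adenine-rich stretch, which was left out. With ends over 200 nt apart alone, 13 genes had 2 or more ends.

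The most even pairs were in USP47, USP7, USP5, USP24 and USP34. In USP47, a protease acting on DNA polymerase beta, both ends had 30 tags, 947 nt apart, and both carried AAUAAA. In USP7 the proximal end had 64 tags and the distal 59, 719 nt apart, again with AAUAAA at both. USP24 had 34 and 28 tags, 1554 nt apart, also with AAUAAA at both. USP5 had 125 and 104 tags only 112 nt apart, and AAUAAA was at the distal end alone. In USP47, USP7 and USP34 a taller 3′ UTR peak, of 123, 115 and 22 tags, lay in front of an adenine-rich stretch. These peaks are not among the ends given.

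USP34, USP40 and USP48 had ends in different exons. In USP40 51 tags were at the distal end. Its other end, 20 tags without a signal, lay 12264 nt upstream, in intron 28 of the canonical transcript. In USP34 the distal end had 18 tags with AUUAAA at the canonical end, and the other end, 14 tags without a signal, lay 39328 nt upstream, 4 nt before the annotated end of a shorter transcript, in what is intron 62 of the canonical transcript. In USP48 99 tags were at the distal end, and 39 tags lay 48946 nt upstream, in intron 11, with AAUAAA at 14 nt and 4 nt before the annotated end of a shorter transcript. The HNRNPC peak of USP48, 10 tags high, was in the same intron, 2153 nt downstream of this upstream end.

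**Figure D5:**
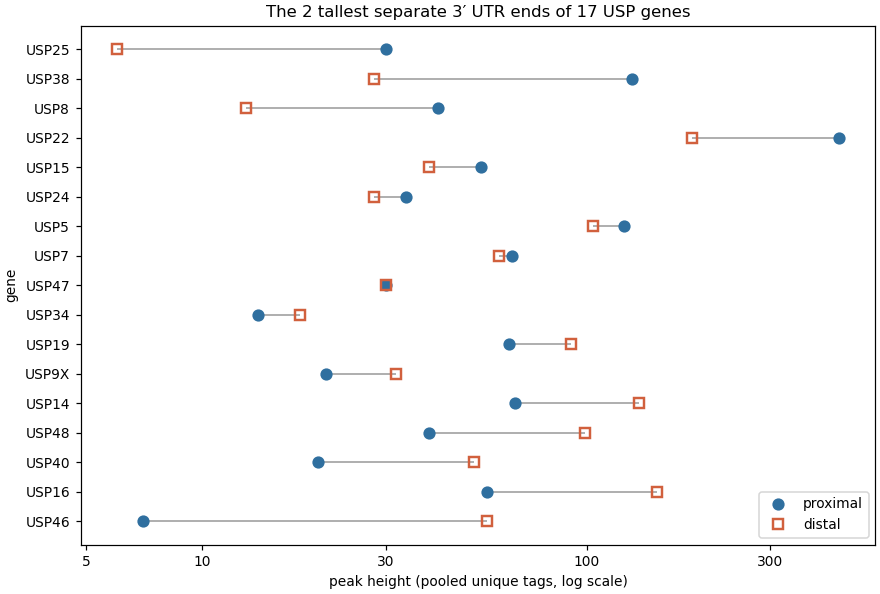
Heights of the 2 tallest separate 3′ UTR ends, in pooled unique tags (log scale), of the 17 USP genes with such a pair, without peaks in front of adenine-rich stretches. Filled circles are the proximal and open squares the distal end, genes are ordered by the share of the proximal end, and the line joins both. The proximal end is taller in 8 genes, the distal end in 8, and both have 30 tags in USP47.

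In USP genes the peaks of both proteins lay apart. In the 16 genes with both, 0 of 25 HNRNPC peaks overlapped a PABPC4 peak by even 1 nt, which allows a share of up to 12.0% by counting error, and the gap to the nearest PABPC4 peak of the same gene had a median of 6803 nt. The share of all HNRNPC peaks that overlap a PABPC4 peak is not given here, so the 0 is not shown to be particular to USP genes. The closest was in USP33, a protease of receptor recycling, where the 6-tag HNRNPC peak lay 227 nt from an 88-tag PABPC4 peak in coding sequence in front of an adenine-rich stretch. In USP34 the 9-tag HNRNPC peak was 277 nt from an intron peak of 69 tags, again in front of such a stretch, and in USP32 a 7-tag peak was 540 nt from an intron peak of 19 tags of the same kind. In USP25 the gap was the widest, 35978 nt. A 3′ UTR peak was the nearest PABPC4 peak of only 2 HNRNPC peaks, that of USP48 given above and the 12-tag peak of USP12, 35885 nt upstream of a 58-tag end.

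Grouped by known roles, peaks were spread over the whole family. The groups are small, and each count is to be read against the shares of all protein-coding genes given above, 60.7% with a PABPC4 peak, 49.7% with one in a 3′ UTR and 19.2% with an HNRNPC peak. All 10 genes of DNA repair and the p53 pathway had PABPC4 peaks, 9 of them in a 3′ UTR (USP42 being the other), and USP7, USP10 and USP48 had HNRNPC peaks. Of the 8 histone H2A and H2B proteases 6 had PABPC4 3′ UTR peaks and USP22 alone had HNRNPC peaks. The 3 genes of free ubiquitin chains and the proteasome, USP5, USP13 and USP14, all had PABPC4 3′ UTR peaks, of 125, 12 and 137 tags for the tallest, and USP13 and USP14 had HNRNPC peaks. Of the 7 genes of endosome, endoplasmic reticulum and mitochondria 6 had PABPC4 peaks, and 2, USP32 and USP33, had HNRNPC peaks. Among the 6 were USP19, which is anchored in the endoplasmic reticulum, with ends of 91 and 63 tags, and USP8, the protease of endosomal sorting, with ends of 41 and 13 tags. A taller 3′ UTR peak of USP8, 73 tags, was followed by an adenine-rich stretch and is not among its ends.

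Of the 10 genes of receptor and immune signalling 8 had PABPC4 peaks and 5 HNRNPC peaks, USP4, USP12, USP15, USP25 and USP34. At least 2 separate ends were present in 15.6% of all protein-coding genes and in 6 of the 10 genes of this group. They included USP38, with 131 and 28 tags, and USP46, with 7 tags at the proximal and 55 at the distal end, 3298 nt apart. USP15, which like USP4 acts in TGF-β signalling, had ends of 53 and 39 tags 1279 nt apart, both more than 10 kb short of the canonical end. Its tallest 3′ UTR peak, 60 tags and 999 nt past the canonical end, was followed by an adenine-rich stretch and is not among these ends. The 2 genes of splicing and the nucleolus, USP39 and USP36, had 3′ UTR peaks of up to 137 and 60 tags, and USP36 had an HNRNPC peak. Of the 10 remaining proteases 6 had a PABPC4 peak and 4 a 3′ UTR peak, USP31, USP37, USP40 and USP43, while USP31, USP35 and USP40 had HNRNPC peaks. USP6NL had 11 PABPC4 peaks under its ID and no HNRNPC peak.

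A list of genes related to deubiquitinase families, such as the OTU, UCH, Josephin and JAMM families, gave similar shares. Among its genes were CYLD, USPL1, PAN2, ALG13, COPS6, EIF3F and EIF3H. Whether each listed gene encodes an active deubiquitinase, or one unrelated to the USP proteases, was not checked. Of the 42 listed genes 35 (83.3%) had a PABPC4 peak, 34 (81.0%) a PABPC4 3′ UTR peak and 12 (28.6%) an HNRNPC peak. None had an HNRNPC 3′ UTR peak. The tallest 3′ UTR peaks of the listed genes had a median of 47 tags, against 60.5 for the USP genes. At least 2 separate ends were in 11 of the 42, against 17 of 51 USP genes and 15.6% of all protein-coding genes. Partner subunits of USP proteases numbered 9, and all of them had a PABPC4 3′ UTR peak, against 49.7% of all protein-coding genes. HNRNPC peaks were in 4 of the 9 (19.2% of all genes): WDR20, partner of USP12 and USP46, with 4 peaks of up to 40 tags, of which 1 was in the 3′ UTR, ATXN7 of the USP22 module with 4 of up to 11 tags, G3BP1, partner of USP10, with 3 of up to 14 tags, and STAM, partner of USP8, with 2 of up to 8 tags. USP12 itself had no HNRNPC 3′ UTR peak and USP46 no HNRNPC peak at all.

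Some positions carried the IDs of several genes, namely 2 HNRNPC peaks, in USP25 and USP31, and 17 PABPC4 peaks, in USP16, USP25, USP31, USP32 and USP4. All 7 PABPC4 peaks of USP16 and all 3 of USP25, both on chromosome 21, were among them, as were all 5 of USP31. Each of these peaks lay inside the gene model of the USP gene on its own strand, and they are counted above.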

How the data were processed

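The deposited signal was the height of each peak, the number of unique tags at its summit after the authors pooled the tags of both samples of a protein. For HNRNPC the authors collapsed reads by molecular identifiers (UMI-tools), trimmed them (cutadapt), mapped them to hg38 (BWA 0.7.17), took out PCR duplicates and used the CLIP Tool Kit to find peaks separated by valleys, correcting for multiple testing. How the PABPC4 tags were processed was not given separately in the sources used here, and the list had the same layout. The authors' p-value and the gene ID of each peak were read from its name. Tag totals per sample are unknown, so heights were not compared between the lists and no depth-based interval was computed.

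Each position was counted once per gene ID. Gene IDs were matched through RefSeq (GRCh38.p14), 19318 of 20056 protein-coding genes, to GENCODE 44, and a peak was placed by its centre over all transcripts of the gene in the order 3′ UTR, coding sequence, 5′ UTR, non-coding exon, intron. Sequence marks were read from hg38 with pyfaidx 0.9.0.4 by code tested on simulated peaks. Values were computed with pandas 2.3.3 and scipy 1.17.1, and figures drawn with matplotlib 3.10.9, under Python 3.11.15. Shares carry 95% Wilson intervals, and a share of 0 the limit of 3 counts. Comparisons with all protein-coding genes or all peaks are descriptions without a test. The members, the gene lists and the sequence marks were chosen with earlier results of these data known. Genes described in full were the 5 with the most and the 5 with the tallest peaks of each protein (for PABPC4, tallest in a 3′ UTR), those without a peak, and the 5 with the most even pairs of ends. All 51 members could be named. The sequence at 1 HNRNPC peak is not reported here.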

Additional observations from a re-analysis of the deposited data

How the results depend on the processing

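No paired analysis was possible because tags were merged across samples before peaks were called, which also kept any sample from being left out. The 17 results were recomputed under 99 alternatives, of which 78 stayed within the spread allowed (counts within 1.5 times, shares within their interval) and 21 moved. With peaks at an authors' p-value of at most 0.001 alone, 11 genes had an HNRNPC peak, 10 had peaks of both proteins, and 14 HNRNPC peaks were left. With peaks at or above the median height of the list alone, these values were 6, 6 and 8, PABPC4 peaks numbered 159, genes with 2 or more separate ends 8, and 62.8% of the 3′ UTR peaks were at an annotated end. Without peaks that have GUGUCA, 15 HNRNPC peaks were left, and without peaks in front of adenine-rich stretches 128 PABPC4 peaks, of which 41.4% were in 3′ UTRs. With the tallest peak of each gene alone 54.8% of PABPC4 peaks were in 3′ UTRs. In canonical transcripts alone 100% of the HNRNPC peaks were in introns and 26.7% of 75 3′ UTR peaks were at the annotated end. A poly(A) signal was at 75.6% of 3′ UTR peaks within 100 nt on either side, and at 40.2% when AAUAAA alone was counted. Adenine-rich stretches followed 46.0% of intron peaks within 20 nt, and 55.0% when only 6 A in a row counted. With 4 U in a row 42.3% of HNRNPC peaks had a run. Summed heights gave a median of 99 tags for the 3′ UTR of a gene. Fewer peaks are counted by construction under the stricter filters. Peaks below the authors' calling limit were not analysed here, so a gene without a peak is not shown to be unbound.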

Other observations

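PABPC4 peaks on the strand opposite to a USP gene, within its span, were found in 7 genes. The tallest, 132 tags, was 1 of 2 in USP54, listed under PPP3CB-AS1, an antisense RNA gene. USP39 held 4 of up to 50 tags, listed under the neighbouring gene C2orf68. USP50, which had no peak of its own, held 3 of up to 44 tags that were listed under USP8, the neighbour on the other strand. USP3, USP25, USP34 and USP37 held 1 each, of 7 to 19 tags.

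Among transcripts related to the family by name, the pseudogene USP32P2 had 2 HNRNPC peaks of up to 7 tags and USP32P3 had 1 PABPC4 peak of 36 tags. Reads of such copies and of USP32 itself can be hard to assign. USP3-AS1, an antisense transcript of USP3, had 1 HNRNPC peak of 4 tags and 1 PABPC4 peak of 19 tags, and USP2-AS1 had 1 PABPC4 peak of 13 tags although USP2 had none.

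USP54 had no PABPC4 peak in a 3′ UTR, and its tallest peak, 149 tags without an adenine-rich stretch or a poly(A) signal, lay outside the canonical transcript in an intron of a longer one. USP48 had 2 intron peaks of 120 and 113 tags, taller than the 99 tags at its 3′ UTR end, again with neither mark. In USP3, a histone H2A protease, an intron peak of 116 tags of the same kind was taller than its 3′ UTR peak of 57 tags.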
